A study of Gallus gallus with 12 samples.

Results

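A set of 10 genes, of 11207 measured, had a higher mean level after lipopolysaccharide (LPS) than after saline in microglia of heat-conditioned chicks and a nearly equal mean level in chicks that had not been conditioned. They were chosen from the measured values themselves. Counts were scaled to a total of 1000000 in each library (CPM), and genes with 150 or more counts over the 12 libraries were kept, which left 3999. For each gene the log2 ratio of group mean CPM, with 5 CPM added to both means, was taken for LPS over saline without conditioning (a) and with conditioning (b). A gene was chosen when b was at least 0.8 and a lay between -0.3 and 0.3. The values of a and b are therefore descriptions of the choice and were not tested as findings. The genes are ranked 1 to 10 by b, the highest first.

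Microglia had been collected by FACS from the anterior hypothalamus of 11-day-old chicks (Gallus gallus), and each library came from a pool of 10 to 12 birds. The birds of 2 groups were kept at 39°C for 24 h on day 3 after hatching (conditioned) and those of the other 2 were not (non-conditioned). On day 10 saline or LPS was injected into the third ventricle, and cells were taken on day 11. Each of the 4 groups, saline non-conditioned, LPS non-conditioned, saline conditioned and LPS conditioned, has 3 libraries. The labels name neither strain nor sex of the birds. Because the birds were pooled, differences between single birds are not visible. The labels give no other allele or agent for any group.

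Microglia are the resident macrophages of the brain. They sense LPS, a component of the outer membrane of Gram-negative bacteria, through Toll-like receptor signalling, which switches on genes of cytokines, chemokines and other immune effectors. An early stimulus can leave macrophages with a larger or a smaller reaction to a later one, which is called innate immune memory. The anterior hypothalamus holds the centre that regulates body temperature, and a brief heat exposure in the days after hatching is known to alter later heat tolerance in chicks. The deposited table gives Ensembl identifiers without gene symbols, and none of them (0 of 11207) matched an entry of the reference list. The functions of the 10 genes are therefore not stated, no marker of microglia or of another cell type could be checked, and 2 of the 10 genes are given by identifier, by a rule for naming that took the highest b among genes whose conditioned libraries were separate.

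Library totals ran from 189180 to 963146 counts, and the groups overlapped in depth. The 3 LPS conditioned libraries were the most even, at 451683 to 504861 counts, while the saline conditioned libraries ranged from 236219 to 963146. A floor of 3 counts corresponds to 3.11 CPM in the deepest and 15.9 CPM in the shallowest library. Of the 120 pairs of a chosen gene and a library, 4 were at or under that floor and 22 held fewer than 10 counts. In 7 of the 10 genes the 12 libraries together held fewer than 300 counts. A level in such pools can be lower because fewer cells express a gene or because each cell holds less of its RNA, and bulk libraries cannot tell these apart.

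**Figure D1:**
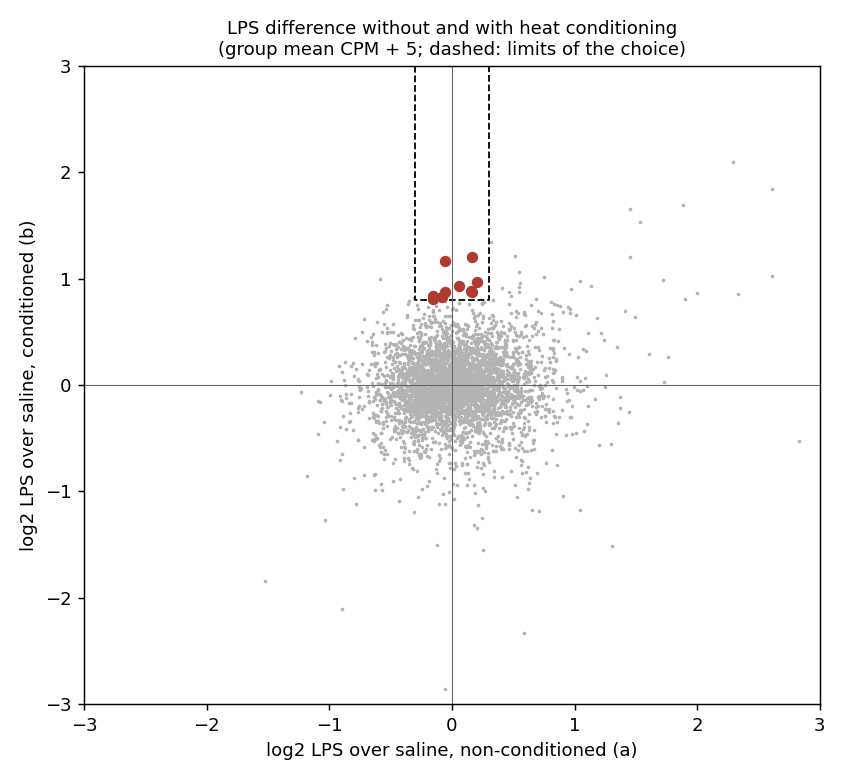
Log2 ratio of group mean CPM for LPS over saline in non-conditioned chicks (x axis, a) and conditioned chicks (y axis, b), with 5 CPM added to each mean. Grey points are genes with 150 or more counts, red points the 10 chosen genes, and dashed lines the limits of the choice. The axes end at 3 and leave out 5 genes. The 10 genes lie close above the lower limit of 0.8.

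The chosen genes stood at the edge of a continuous distribution. Among the 3999 genes, 37 had b of at least 0.8, of which 25 had a above 0.3, 2 had a below -0.3 and 10 were chosen. The mirrored choice, a of at least 0.8 with b between -0.3 and 0.3, gave 45 genes, and b of -0.8 or less with a between -0.3 and 0.3 gave 30. Over all 3999 genes the SD of a was 0.39 and that of b was 0.33, so the difference without conditioning was the wider one. The chosen genes had b from 0.81 to 1.20 with a median of 0.88, where the median over all genes was -0.01. Just inside the limit the lowest values of b were 0.81 and 0.83, and just outside they were 0.79 and 0.79 for genes with a within its limits. The nearest genes beyond the limits of a had a of -0.31 with b of 0.82 and a of 0.32 with b of 1.34.

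ENSGALG00000004366.5, ranked 2, had the clearest separation. Its levels were 15.9, 21.1 and 39.2 CPM in replicates 1 to 3 of the saline non-conditioned group and 28.3, 21.1 and 23.3 CPM in those of the LPS non-conditioned group. They were 28.8, 12.7 and 23.9 CPM in the saline conditioned and 55.5, 49.5 and 59.8 CPM in the LPS conditioned libraries. All 3 LPS conditioned libraries lay above every one of the other 9, and the other 3 groups overlapped one another. The group means were 25.4 ± 12.2, 24.2 ± 3.70, 21.8 ± 8.26 and 54.9 ± 5.15 CPM (SD, n = 3), with b of 1.16 and a of -0.06. It is a gene of low level, with 43 counts in the saline conditioned and 78 in the LPS conditioned libraries. The choice fixed that the second group was the higher one per total. The 12.7 CPM in saline conditioned replicate 2 was 3 counts, at the floor of that library. Saline non-conditioned replicates 1 and 2 held 5 and 4 counts. The separation from these libraries thus rests on few counts.

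None of the other 9 genes had this form. The full separation of the LPS conditioned libraries from all others was met by 1 of the 10 genes and by 0.8% of the 3999. Separation from the LPS non-conditioned libraries alone was also met by this 1 gene, and by 5.65% of all genes. In 8 of the 10 genes each LPS conditioned library lay above each saline conditioned library, which 7.73% of all genes did. Both shares are descriptions, since the choice used these libraries. Without conditioning, the LPS and saline libraries overlapped in all 10 genes, with 0 genes wholly higher (5.9% of all genes) and 0 wholly lower (6.33%) after LPS, as the limits on a favour.

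**Figure D2:**
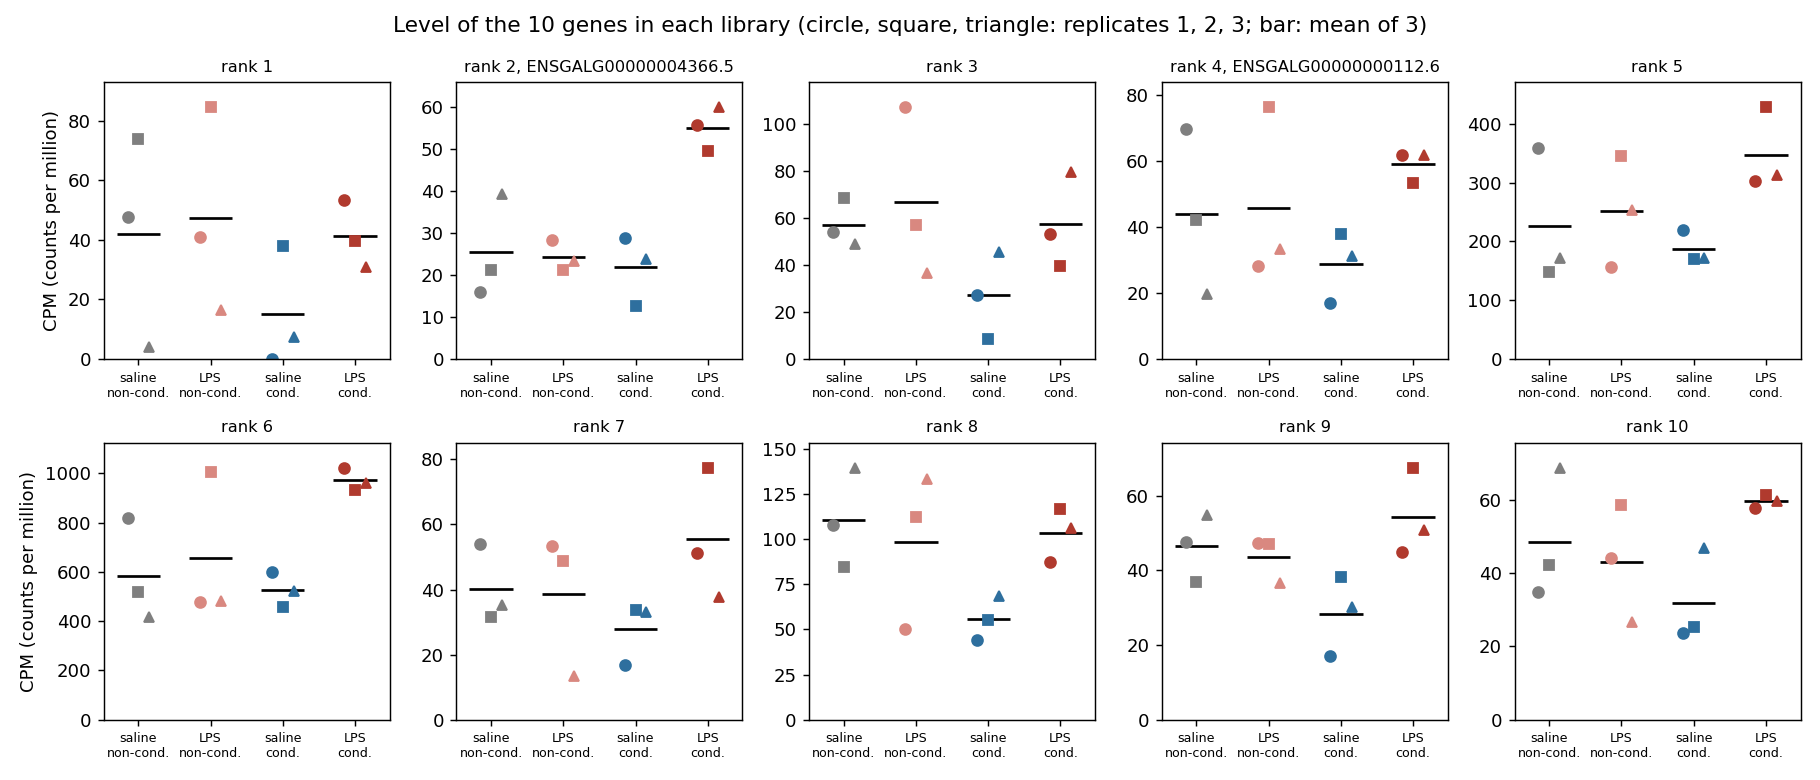
Level in CPM of each of the 10 genes (panels, ranked by b) in the 12 libraries, by group. Points are libraries, their shapes replicate numbers, and bars the mean of 3 libraries. In 8 panels all LPS conditioned points lie above all saline conditioned points, and in the panel of ENSGALG00000004366.5 they lie above all other points.

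The most abundant of the 10 genes, ranked 6, overlapped with the LPS conditioned group in 1 non-conditioned library. It was at 818, 518 and 416 CPM in the saline non-conditioned and at 478, 1004 and 482 CPM in the LPS non-conditioned libraries. With conditioning it was at 598, 457 and 523 CPM after saline and at 1020.5, 933 and 961 CPM after LPS. The conditioned groups were each narrow and did not overlap, whereas each non-conditioned group held 1 library well above its other 2, at 818 and 1004 CPM. The group means were 584 ± 209, 655 ± 302, 526 ± 70.7 and 971 ± 44.7 CPM (SD, n = 3), with b of 0.88 and a of 0.16. This gene held 3831 counts over the 12 libraries.

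The gene ranked 5, the second in abundance, had a similar distribution over the libraries. It was at 358, 148 and 172 CPM in the saline non-conditioned and at 157, 346 and 253 CPM in the LPS non-conditioned libraries. With conditioning it was at 219, 169 and 171 CPM after saline and at 303, 428 and 312 CPM after LPS. Replicate 1 after saline and replicate 2 after LPS, both without conditioning, lay within the range of the LPS conditioned libraries, so the conditioned groups were separate and the non-conditioned groups spanned both.

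ENSGALG00000000112.6, ranked 4, repeated this at a lower level. It was at 69.7, 42.3 and 19.6 CPM after saline and at 28.3, 76.4 and 33.3 CPM after LPS without conditioning. With conditioning it was at 16.95, 38.1 and 31.1 CPM after saline and at 61.9, 53.5 and 62.0 CPM after LPS. The highest of the 12 values, 76.4 CPM, was in LPS non-conditioned replicate 2, and the LPS conditioned libraries were close together. At their 27 to 29 counts, counting error alone would give a wider spread, so nothing is read from that. Its group means were 43.9 ± 25.1, 46.0 ± 26.4, 28.7 ± 10.8 and 59.1 ± 4.89 CPM (SD, n = 3), with b of 0.93 and a of 0.06.

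The genes ranked 8 and 3 had the lower level after saline in conditioned birds as the larger part of the difference. So did ENSGALG00000000112.6 and the genes ranked 1, 9 and 10. For the genes ranked 1 and 3 the log2 ratio of conditioned over non-conditioned after LPS was below 0, at -0.18 and -0.20. The gene ranked 8 was at 108, 84.6 and 139 CPM after saline and at 50.4, 112 and 133 CPM after LPS without conditioning. With conditioning it was at 44.1, 55.0 and 68.5 CPM after saline and at 87.5, 117 and 106 CPM after LPS. Every saline conditioned library lay below every saline non-conditioned one, and the LPS conditioned libraries lay within the non-conditioned range. The gene ranked 3 was similar, with 53.9, 68.7 and 49.0 CPM in the saline non-conditioned, 107, 56.9 and 36.6 CPM in the LPS non-conditioned, 27.1, 8.47 and 45.7 CPM in the saline conditioned and 53.4, 39.6 and 79.7 CPM in the LPS conditioned libraries. Here the LPS conditioned and saline conditioned libraries overlapped. The 8.47 CPM in saline conditioned replicate 2 was 2 counts, under that library's floor of 12.7 CPM. Without this library b was 0.60, and the gene left the set. The genes ranked 8 and 3 were the 2 of 10 whose saline conditioned libraries were all below the saline non-conditioned ones, which 4.8% of all genes were. The choice favours a low saline conditioned mean, so nothing is read from these shares.

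The gene with the highest b, ranked 1, was also the most scattered. It was at 47.6, 74.0 and 3.92 CPM after saline and at 40.9, 84.5 and 16.6 CPM after LPS without conditioning. With conditioning it had 0, 9 and 7 counts after saline, that is 0, 38.1 and 7.27 CPM, and was at 53.4, 39.6 and 31.0 CPM after LPS. Its 0 counts in saline conditioned replicate 1 allow a level of up to 5.09 CPM. Saline conditioned replicate 2 lay within the LPS conditioned range, so these groups overlapped, and b was 2.42 without it. Without saline conditioned replicate 1, the library with 0 counts, b was 0.74 and the gene left the set. The value of a for this gene, 0.16 with all libraries, ran from -0.47 to 0.77 with single libraries left out. Its near equality without conditioning is thus loosely determined.

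The genes ranked 7, 9 and 10 completed the set, with separate conditioned groups and LPS conditioned means of 55.4 ± 20.1, 54.4 ± 11.6 and 59.6 ± 1.89 CPM (SD, n = 3) against 28.01 ± 9.59, 28.4 ± 10.7 and 32.0 ± 12.8 CPM in the saline conditioned group. The last of them was at 57.6, 61.4 and 59.8 CPM in the LPS conditioned libraries, a CV of 3.17% at 27 to 31 counts each. Counting error alone would give a wider spread at such counts, so nothing is read from this closeness.

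Conditioned and non-conditioned birds were then set side by side to describe where the difference arose. The saline conditioned mean was the lowest of the 4 group means in 10 of the 10 genes, against 21.4% of all 3999 genes, and the LPS conditioned mean was the highest in 7 of 10, against 24.8%. After saline the log2 ratio of conditioned over non-conditioned was negative in all 10 (50.3% of all genes), from -1.22 to -0.15 with a median of -0.54. After LPS it was positive in 8 (48.8% of all genes) and ran from -0.20 to 1.04 with a median of 0.38. The medians over all genes were 0.00 and -0.01. The size of the ratio after saline exceeded that after LPS in 6 genes, and the reverse held in 4, those ranked 2, 5, 6 and 7. For the gene ranked 7 the sizes were nearly equal, at -0.46 after saline and 0.47 after LPS. In edgeR its differences were -0.59 ± 0.43 and 0.50 ± 0.38 (SE), so its place in this split depends on the scale. The choice sets a lower bound on the difference between the 2 ratios, which equals b minus a and ran from 0.71 to 1.22. The choice leaves free how that difference divides between them only with equal spread in the 4 groups, which these genes did not have. It favours a low saline conditioned and a high LPS conditioned mean, so the shares of all genes are no measure of what the 10 genes would show without a difference, and nothing is read from these counts.

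**Figure D3:**
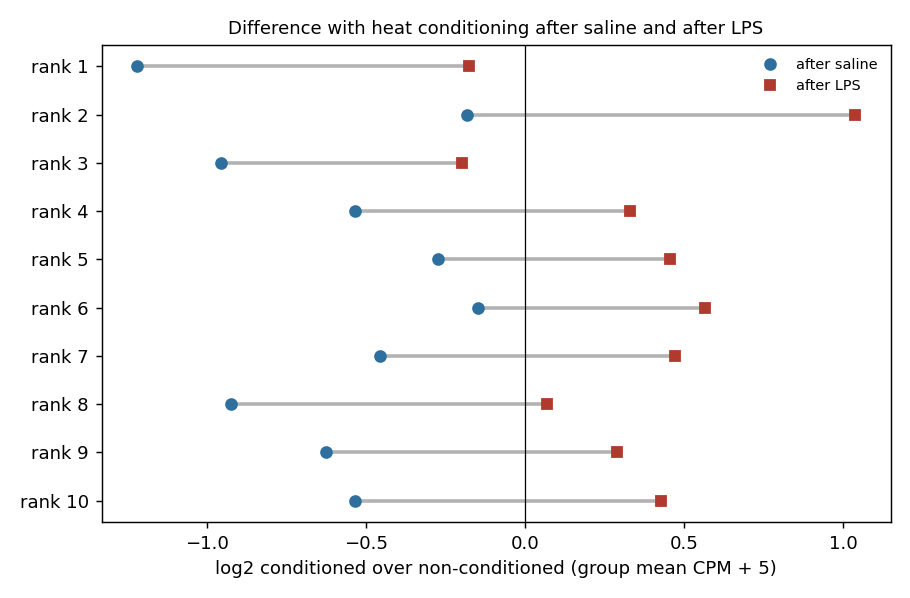
Log2 ratio of conditioned over non-conditioned group mean CPM, with 5 CPM added to each, after saline (blue circles) and after LPS (red squares) for the 10 genes. The distance between the points of a gene is b minus a. The saline points all lie below 0, and the LPS points reach 1.04 for the gene ranked 2.

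The effect of conditioning averaged over saline and LPS was the comparison that the choice did not set, as long as the spread is equal in the 4 groups, because its contrast is then orthogonal to those of a and b. None of the 10 genes passed the edgeR quasi-likelihood test over all 5170 genes tested (Benjamini-Hochberg adjusted p under 0.05), where 0.0193% of genes did. That share is 1 gene, ENSGALG00000035086.2, which was lower with conditioning and is not among the 10. It was singled out after its values were seen. At an unadjusted p under 0.05 there was 1 of the 10 genes, the one ranked 8, against 4.66% of all genes. Its log2 difference, conditioned minus non-conditioned, was -0.48 ± 0.20 (SE, edgeR adjusted p = 0.99). The difference was 0.47 ± 0.28 for ENSGALG00000004366.5 and -0.17 ± 0.28 for ENSGALG00000000112.6 (SE, edgeR adjusted p = 0.999 for both). Over the 10 genes these differences ran from -1.06 to 0.47, with a median of -0.14 beside -0.01 over all genes tested. DESeq2 and limma also called 0 of the 10 genes. Unequal spread, which these genes had, weakens the independence from the choice.

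In the comparisons that the choice did use, edgeR called 0 of the 10 genes for LPS with conditioning, where 0.116% of genes were called higher. All 10 had an unadjusted p under 0.05 there, as the choice by b would bring about, against 3.98% of genes in that direction. For the interaction, the difference between both LPS effects, 0 of the 10 and 0% of all genes were called, and 5 of the 10 were at an unadjusted p under 0.05 against 3.15% of genes in that direction. For LPS without conditioning, 0 of the 10 and 0.542% of all genes were called, and for conditioning with saline and with LPS, taken separately, 0 of the 10 and 0% of all genes. At an unadjusted p under 0.05 these 3 comparisons held 0, 3 and 2 of the 10 genes, against 9.32%, 4.95% and 6.58% of all genes, and DESeq2 and limma called 0 of the 10 in each. Nothing is read from these counts. A rise confined to conditioned birds is therefore a description of group means here, and for none of the 10 genes was the difference between conditioned and non-conditioned birds established over all genes. DESeq2 called 0 of the 10 for LPS with conditioning and for the interaction. For LPS with conditioning limma-voom called 1, the gene ranked 6. It called 0.484% of all genes there (25 of 5170) in either direction, 16 of them higher. A fit on the 6 conditioned libraries alone called the genes ranked 5 and 6. In that fit 1.15% of all genes (54 of 4715) were called in either direction, 28 of them higher. The choice used this contrast, so these calls support nothing about the 10 genes.

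**Figure D4:**
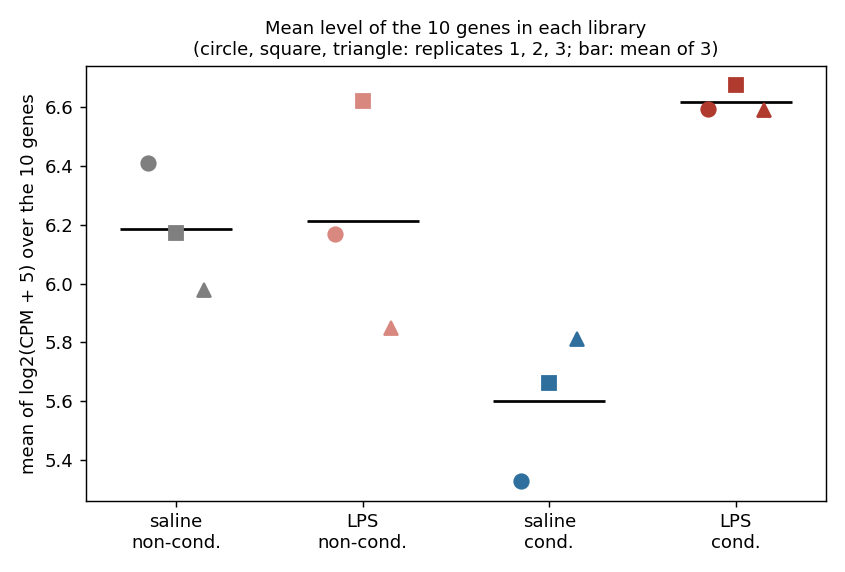
Mean of log2(CPM + 5) over the 10 genes in each library, by group. Points are libraries, their shapes replicate numbers, and bars the mean of 3. The LPS conditioned libraries lie between 6.59 and 6.67 and the saline conditioned ones between 5.33 and 5.81, while the LPS non-conditioned ones reach from 5.85 to 6.62.

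In the mean over the 10 genes, the pools were closest together in the LPS conditioned group. Averaged over the 10 genes, log2(CPM + 5) was 6.41, 6.17 and 5.98 in the saline non-conditioned and 6.17, 6.62 and 5.85 in the LPS non-conditioned libraries. It was 5.33, 5.66 and 5.81 in the saline conditioned and 6.59, 6.67 and 6.59 in the LPS conditioned libraries. LPS non-conditioned replicate 2 thus had the level of the LPS conditioned libraries, and no non-conditioned library was as low as saline conditioned replicates 1 to 3. For single genes the CV between pools had a median of 36.1% in the saline non-conditioned, 44.9% in the LPS non-conditioned, 37.6% in the saline conditioned and 17.2% in the LPS conditioned group. Over the 3481 of 3999 genes in the same range of mean level, the medians were 24.5%, 20.1%, 17.99% and 15.7%. That range is not matched for level: the median of the 10 genes was at the 26.3 percentile of mean level, and 7 of them held fewer than 300 counts. The part of depth in this was not tested, and LPS non-conditioned replicate 2, at 615505 counts, was the deepest library of its group. The choice favours a low saline conditioned and a high LPS conditioned mean, which itself bears on these CVs. They are therefore descriptions of the chosen genes.

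The correlation between the 10 genes was lower once the groups were accounted for. Over the 45 pairs of genes, the correlation of log2(CPM + 5) across the 12 libraries had a median Pearson r of 0.42, with 44 pairs above 0, which the shared choice by group means brings with it. After each group's mean was subtracted, the median r was 0.08, the range was -0.84 to 0.80 and 27 pairs were above 0. The mean deviation over the 10 genes was largest in size in LPS non-conditioned replicates 2 and 3, at 0.41 and -0.36 log2. Counting error lowers correlations between genes of few counts, and its part was not tested. The 12 points share libraries and group means, and no test was made. Whether the 10 genes vary as a unit is therefore not settled.

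**Figure D5:**
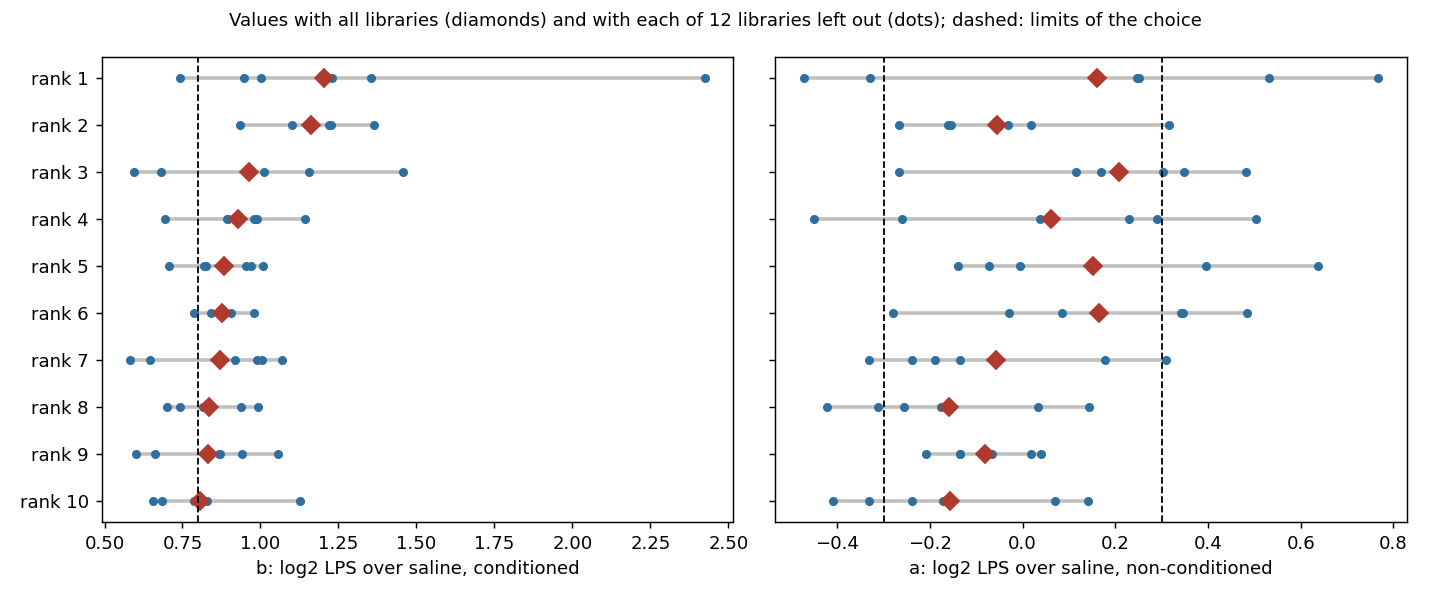
Values of b (left) and a (right), in log2, for the 10 genes with all libraries (red diamonds) and with each of the 12 libraries left out in turn (blue dots). Grey lines span the dots and dashed lines are the limits of the choice. Every dot of b lies above 0, and each gene has at least 1 dot beyond a limit. Only conditioned libraries enter b and only non-conditioned ones enter a, so the dots of the other libraries repeat the full value.

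Membership of the set depended on single libraries. With each library left out in turn, b stayed above 0 in all 120 combinations of a gene and a library, but the gene left the set in 36 of them, 15 times through b and 21 times through a. Leaving out a non-conditioned library cannot change b, and leaving out a conditioned one cannot change a. The choice also began from b of at least 0.8, so b above 0 is no sign of stability. No gene was kept in all 12 settings. ENSGALG00000004366.5 was kept in 11 of 12, with b from 0.93 to 1.36, and was lost without saline non-conditioned replicate 3, where a was 0.32. ENSGALG00000000112.6 was kept in 9, and the genes ranked 1, 3 and 10 in 7. The size of the set rose from 10 to 22 without saline conditioned replicate 1, to 30 without saline conditioned replicate 3, to 19 without LPS conditioned replicate 1 and to 16 without LPS conditioned replicate 3. Of the 10 genes, 4, 10, 10 and 9 were among those sets. Without LPS conditioned replicate 2 the set again held 10 genes, but only 5 of the original 10 were in it. Without LPS non-conditioned replicate 3 it held 7 genes, 5 of them from the original 10.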

How the data were processed

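Bulk MARS-seq, which reads the 3′ ends of mRNA, was made from 15 ng of RNA per pool and sequenced as single reads of 100 bp to about 25 M reads per sample, per the labels' protocols. Tools named in the submitters' processing notes are HTSeq, STAR, cutadapt and DESeq2, and the build is galGal5. Versions, annotation, strand setting and use of molecular identifiers are not stated there, so the counts may be reads or molecules, and overlapping, antisense or near-identical genes are uncertain. Raw counts were deposited by the authors for 11207 genes in 12 libraries, per the file headers, and totals were 0.757% to 3.85% of the stated reads. A normalized signal was deposited beside them. It equals the count times a library factor between 1.13 and 6.25 (deviation at most 0.00423% for counts of 100 or more) and served only for an alternative scaling.

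From the counts, CPM by library total and the choice of genes were computed in Python 3.11.15. Differences were tested in edgeR 4.0.16 (R 4.3.3; filterByExpr with minimum count 10, TMM, 5170 genes, 1 quasi-likelihood fit of all 12 libraries with no covariate, 2-sided, Benjamini-Hochberg adjustment over all genes tested). SE is the log2 difference divided by the square root of F. All 10 genes passed this filter. Alternatives used DESeq2 1.42.0 and limma 3.58.1. The fits were tested on simulated data. Floors cover counting error only, and reads amplified by PCR need not be independent molecules.

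Groups and replicate numbers come from the labels, and replicates are separate pools as far as these say. Replicates of a group differed by 1.83 to 7.66 times the chi-square expected from counting, and none was treated as a duplicate. The genes, lists and comparisons were chosen with earlier results of these data known. The reference list of 25635 genes (assembly GRCg7b) gives 0 Ensembl identifiers, so the 10 gene lists and 9 marker lists that had been planned were not applied and no sequence is shown. The rule for naming without symbols took the 2 genes of highest b with an LPS conditioned mean of at least 20 CPM and LPS conditioned libraries above the other 9, or, to fill up, above the saline conditioned libraries.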

Additional observations from a re-analysis of the deposited data

How the results depend on the processing

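The set of 10 genes became 17 with 1 CPM in place of 5 CPM added, 35 with a minimum of 50 counts, 3 with a minimum of 300, 26 with group medians and 16 with the authors' factors, an alternative chosen after the data were seen, and it held 7 to 30 when single libraries were left out. The minimum of 300 counts removes 7 genes by its own construction, and a minimum of 50 counts can only add genes. The cause of the other moves was not tested. TMM and RLE scaling gave 14 and 13 genes and kept all 10, as did 1 CPM and the authors' factors. A minimum of 50 counts changes neither a nor b, so that it kept all 10 was fixed beforehand. Adding 10 CPM gave 7 genes and kept 6 of the 10, group medians kept 6 and the minimum of 300 counts kept 3.

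No setting called any of the 10 genes outside LPS with conditioning. There, where edgeR called 0, limma-voom with library weights called 1, no filter on low counts 3 and the 6 compared libraries alone 2. Of all genes, these settings called 25 of 5170, 65 of 10867 and 54 of 4715 in either direction, with 16, 26 and 28 of them higher. The 3 without a filter were the genes ranked 1, 5 and 6. The choice used this contrast, so these calls support nothing about the 10 genes. Over all genes, LPS with conditioning had 9 calls, DESeq2 15, limma 25, no filter 65, the compared libraries 54, and a library left out 2 to 22. LPS without conditioning had 28, limma 11, no filter 80, the compared libraries 11, and a library left out 8 to 65. The interaction had 0, no filter 35, and a library left out 0 to 5. Conditioning averaged had 1, DESeq2 2, no filter 37, and a library left out 0 to 6. Conditioning with saline had 0 and no filter 8. Conditioning with LPS had 0, DESeq2 1, no filter 64, the compared libraries 13, and a library left out 0 to 16. The cause of these moves was not tested.

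The replicate numbers were not taken to pair the samples. Same-numbered libraries deviated together with r above 0.1 in 2 of 18 pairs (median r 0.02), and different-numbered ones in 2 of 36 (median r -0.02). Of the 12 libraries, 7 correlated best with one of their own number, although same-numbered pairs were the fewer, at 18 against 36. These values do not settle whether the numbers mark a pairing. With the replicate number as a block, conditioning averaged had 2 calls and conditioning with LPS 2, and none of the 10 genes was called in any comparison.

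With a library left out, the median difference of conditioning averaged over the 10 genes ran from -0.28 to 0.07, against -0.14. For ENSGALG00000004366.5 the difference with LPS without conditioning ran from -0.59 to 0.43, and that of conditioning with saline from -0.57 to 0.44. For ENSGALG00000000112.6 the difference with LPS without conditioning ran from -0.44 to 0.79, and that of conditioning averaged from -0.39 to 0.18. These 6 changes of sign concern values that were not called, and the other 216 values of the 2 genes kept their direction and their side of the threshold. That was partly fixed beforehand, because leaving out a library outside a comparison hardly moves its value. The choice also set the direction for LPS with conditioning, so the 216 values are no measure of robustness. ENSGALG00000004366.5 has no value in 2 fits on compared libraries alone, where it did not pass the filter. At 3 counts per library, levels under 3.11 to 15.9 CPM were not resolved.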
